A study of Homo sapiens with 6 samples.

Results

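The 10 genes described here are the regulators NFE2L2 and KEAP1 of the NRF2 oxidative stress response and 8 of its well-known redox targets: NQO1, PIR, TXNRD1, SRXN1, GCLC, GCLM, SLC7A11 and HMOX1. They were selected by name from a table of 18625 human genes, and all 10 averaged at least 10 normalized counts, the limit that left 16887 genes for testing. The choice was made with the comparison of Tan I against DMSO in these libraries already known, so the differences of the 10 genes are given as a description. Their intervals and calls rest on the spread between the libraries, drawn in the fit toward that of genes at a similar level. They are no independent test.

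NB4 is a human acute promyelocytic leukemia cell line. RNA was sequenced from NB4 cells kept for 3 days in DMSO, the solvent control (3 libraries), or in 10 μM Tan I (3 libraries). Tan I, tanshinone I, is a lipid-soluble diterpenoid quinone from the root of Salvia miltiorrhiza. The study used this comparison to ask which genes respond when the leukemic cells are treated. Nothing in the labels says whether the 3 libraries of a group came from separate cultures, so the spread between them may be technical.

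The protein NRF2, encoded by NFE2L2, is a transcription factor that is made continuously and, in resting cells, is held and passed to the proteasome by KEAP1. Electrophiles and oxidants modify cysteines of KEAP1, NRF2 escapes degradation, pairs with a small MAF protein and binds antioxidant response elements near its targets. Since this control acts on protein stability, the mRNA of NFE2L2 or KEAP1 does not report NRF2 activity, which was not measured here. The targets make and recycle glutathione and thioredoxin, reduce quinones and break down heme.

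The table held 21502760 to 31679138 reads on listed genes per library. The first principal component of the log2 values took 70.82% of the variance and did not separate the groups. DMSO replicate 2 (score 41.1) and Tan I replicate 3 (71.6) lay at one end, and DMSO replicate 1 (-48.0) and Tan I replicate 1 (-46.8) at the other. DMSO replicate 3 (-26.7) and Tan I replicate 2 (8.65) lay between. Rank by rank the Tan I scores were the higher, so the component was not balanced between the groups. The part of this imbalance in the differences below was not tested. Results are therefore also given without single libraries where that matters. The promyelocyte markers of the line were high: the 5 of 6 markers analysed summed to between 70959 and 76923 normalized counts under DMSO and between 41825 and 50123 under Tan I, with none of MPO, PRTN3, AZU1, CTSG and CD33 at 0. MPO, the myeloperoxidase of primary granules, averaged 62588 ± 1950 normalized counts under DMSO against 36602 ± 3112 under Tan I (SD, n = 3), and carried most of the difference in the sum. CTSG, cathepsin G, averaged 1909 ± 438 against 1199 ± 333, and for both genes all 3 Tan I libraries lay below the 3 of DMSO. The groups overlapped for PRTN3 (log2 difference -0.32), AZU1 (-0.25) and the surface antigen CD33 (0.07). Sums for other cell types were small in both groups. They were 383 to 482 in DMSO and 397 to 596 in Tan I for 3 of 4 listed lymphoid markers. For 2 of 3 epithelial markers they were 223 to 375 and 276 to 435. For 3 of 5 monocyte and macrophage markers they were 352 to 461 and 306 to 408. None of 4 erythroid markers was analysed. In bulk libraries, fewer cells of a type and less RNA per cell cannot be told apart. The part of these shifts in the results below was not tested.

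The antioxidant response element is written here as TGACNNNGC, and its core was searched on both strands of the genome (GRCh38) from 1000 bases before to 50 bases after the start of each gene's canonical transcript. It was found for 5 of the 10 genes, against 35.8% of 13025 windows of protein-coding genes of the same length. The matches are printed 5′ to 3′ with the element in capitals and 10 bases on each side, because NRF2 is known to act through elements of this form. Positions count from the start site to the first base of the element on the gene's strand.
NQO1, position -455, chr16:69726997-69727025, minus strand: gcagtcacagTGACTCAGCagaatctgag
PIR, position 27, chrX:15493289-15493317, plus strand: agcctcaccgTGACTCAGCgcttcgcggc
PIR, position -879, chrX:15494194-15494222, plus strand: gtaaatacttTGACTTTGCaggccatgta
TXNRD1, position -99, chr12:104215670-104215698, plus strand: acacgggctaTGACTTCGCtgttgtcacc
TXNRD1, position -8, chr12:104215761-104215789, minus strand: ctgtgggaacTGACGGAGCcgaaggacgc
GCLM, position -34, chr1:93909446-93909474, plus strand: tggaagacaaTGACTAAGCagaaatcgta
GCLC, position -870, chr6:53545953-53545981, plus strand: aaatatgtgtTGACAGAGCaatgacctgt

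NQO1 and one of the PIR windows carried the same 9 letters, TGACTCAGC. The windows of NFE2L2, KEAP1, SRXN1, HMOX1 and SLC7A11 held no match, which says only that these letters were not within those 1050 bases. Sites farther away were not searched for any gene. A match is a description of sequence and does not show binding.

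**Figure D1:**
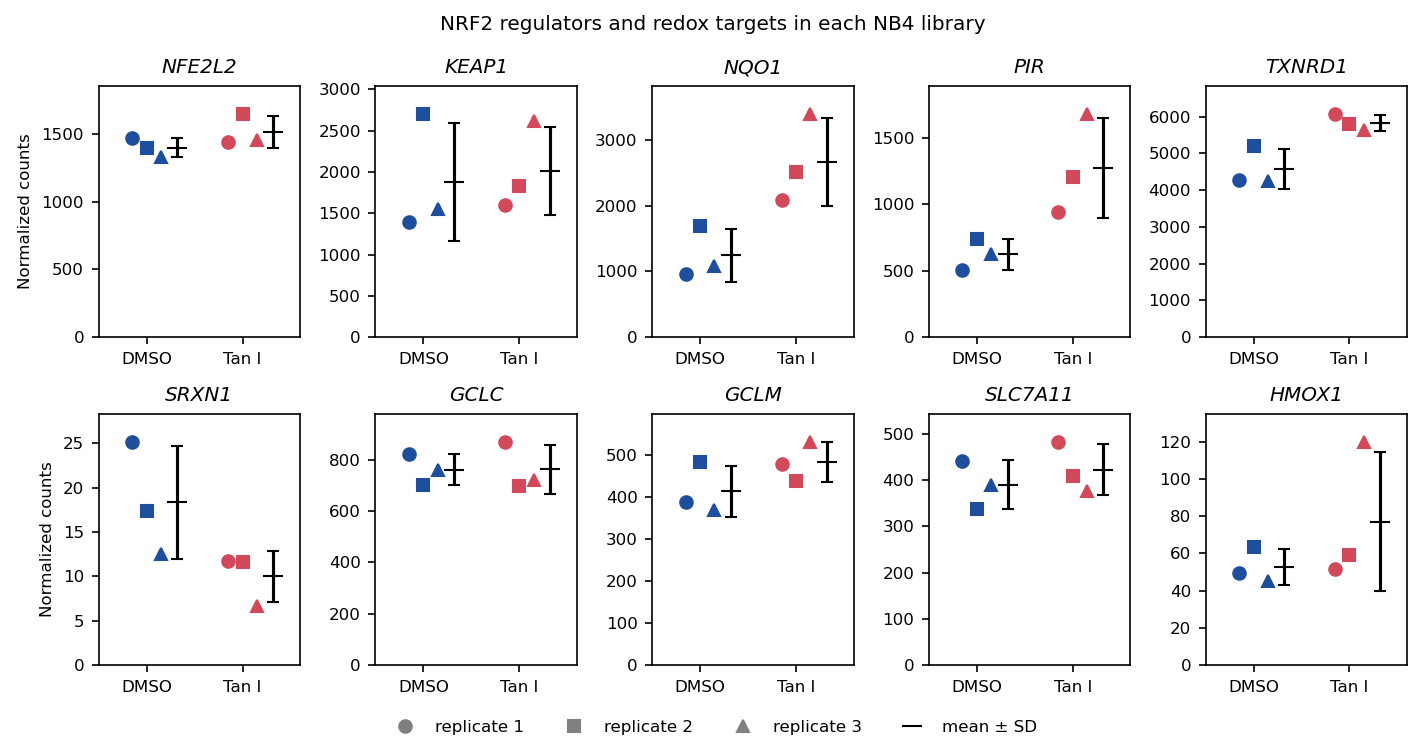
Normalized counts (y axis, linear, from 0) of the 10 genes in the 3 DMSO (blue) and 3 Tan I (red) libraries, with the mean ± SD of each group in black. The 3 Tan I libraries lie above the 3 DMSO libraries for NQO1, PIR and TXNRD1 and below them for SRXN1, and the groups overlap for the other 6 genes.

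The largest differences were those of the quinone reductase NQO1 and of PIR, whose mean levels in Tan I were 2.14 and 2.04 times those in DMSO. TXNRD1 was 0.36 higher on the log2 scale, and SRXN1 was 0.80 lower at very low read numbers. Under the rule used throughout (limma, unadjusted p of at most 0.05 and a log2 difference of at least 0.25), NQO1, PIR and TXNRD1 were called higher and no member was called lower. This is 3 of 10 genes, where 1.32% of all genes tested were called higher and 1.10% lower, and nothing is read from it because the genes were chosen on this contrast. The groups did not overlap in 3 members with Tan I higher and 1 with Tan I lower, beside 3.92% and 3.97% of all genes. With the Benjamini-Hochberg adjustment over all genes, limma called 0 of them (0%), although 410 genes had an unadjusted p of at most 0.05 and 408 also passed the log2 limit. edgeR's quasi-likelihood test on recovered reads called 0 and DESeq2 called 16 after adjustment. No member was among these 16. Over the 10 genes the median log2 difference was 0.18, against 0.00 for all genes, and 8 of the 10 had a higher mean in Tan I.

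The regulators differed little between the groups. NFE2L2 (ENSG00000116044, chromosome 2, 177218667 to 177392756, minus strand) gave normalized counts of 1471, 1398 and 1328 in DMSO replicates 1, 2 and 3 and at 1443, 1647 and 1452 in Tan I replicates 1, 2 and 3. Only Tan I replicate 2 lay above every DMSO library, and the groups overlapped. The log2 difference was 0.11 (SE 0.11, 95% interval -0.15 to 0.37), and it became 0.05 without Tan I replicate 2 or with the libraries scaled to equal totals. Within DMSO, NFE2L2 was among the steadiest genes: the SD of its log2 values was 0.07, lower than for all but 10.3% of genes, with a median of 0.24 over all genes. This comparison was not adjusted for level.

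KEAP1 (ENSG00000079999, chromosome 19, 10486125 to 10503558, minus strand), the adaptor that presents NRF2 to a CUL3 ubiquitin ligase, was far more uneven. It was at 1388, 2703 and 1549 in DMSO and at 1594, 1834 and 2615 in Tan I. The high libraries were DMSO replicate 2 and Tan I replicate 3, those at one end of the first principal component, and the groups overlapped almost fully. On the log2 scale it differed by 0.13 (SE 0.29, interval -0.54 to 0.80), which became -0.05 without DMSO replicate 1 and -0.07 without Tan I replicate 3. The ratio of KEAP1 to NFE2L2 within a library averaged 1.35 ± 0.52 under DMSO and 1.34 ± 0.40 under Tan I (SD, n = 3).

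NQO1 (ENSG00000181019, chromosome 16, 69706996 to 69726668, minus strand) encodes NAD(P)H quinone dehydrogenase 1, which reduces quinones fully and so avoids reactive semiquinones. Its normalized counts were 956, 1700 and 1080 in DMSO (1245 ± 399) and 2083, 2514 and 3399 in Tan I (2665 ± 671). Every Tan I library exceeded every DMSO library. In each group the library at the upper end of the first component was also the highest. The log2 difference was 1.11 (SE 0.26, interval 0.51 to 1.72). It stayed between 0.92 and 1.36 over the 17 alternatives tried, and the gene was called in all 17. Of its transcript, 22.8% lies opposite an exon of a long noncoding gene on the other strand. The strand setting of the counting is not given in the sources used here, so reads of the pair in that stretch may not be separable.

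PIR (ENSG00000087842, chromosome X, 15384799 to 15493564, minus strand) encodes pirin, an iron-binding nuclear protein with quercetinase activity. It was at 505, 740 and 624 in DMSO (623 ± 117) and at 937, 1205 and 1678 in Tan I (1273 ± 375). Within each group the libraries came in the same order as for NQO1, and the groups were again apart. PIR had a log2 difference of 1.01 (SE 0.24, interval 0.45 to 1.56), between 0.79 and 1.21 over the alternatives and called in all 17. No exon of another gene overlapped its transcript.

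Since the libraries differ so much within each group, NQO1 and PIR were also set side by side in libraries with similar scores on the first component, pairs chosen after those scores were seen. Tan I replicate 1 over DMSO replicate 1 gave a ratio of 2.18 for NQO1 and 1.86 for PIR. Tan I replicate 3 over DMSO replicate 2 gave 2.0 and 2.27. On the log2 scale NQO1 differed by 1.12 and 0.999 in these pairs and PIR by 0.89 and 1.18. Of all genes, 0.888% and 2.04% were at least 1 higher in the 2 pairs. NQO1 reached 1 only in the first pair and PIR only in the second. SRXN1 had ratios of 0.47 and 0.38 in the same pairs, where 1.01% and 4.09% of all genes were at least 1 lower on the log2 scale. The other ratios were 1.42 and 1.08 for TXNRD1, 1.24 and 1.10 for GCLM, and 1.05 and 1.89 for HMOX1. NQO1 and PIR were near 2 in both pairs, and TXNRD1 and HMOX1 differed between them. Each ratio sets 1 library against 1 other, from the comparison with which the genes were chosen. The ratios are therefore a description and no further test of NQO1 or PIR. Relative to NFE2L2 in the same library, NQO1 was at 0.650, 1.22 and 0.813 in DMSO and at 1.44, 1.53 and 2.34 in Tan I.

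**Figure D2:**
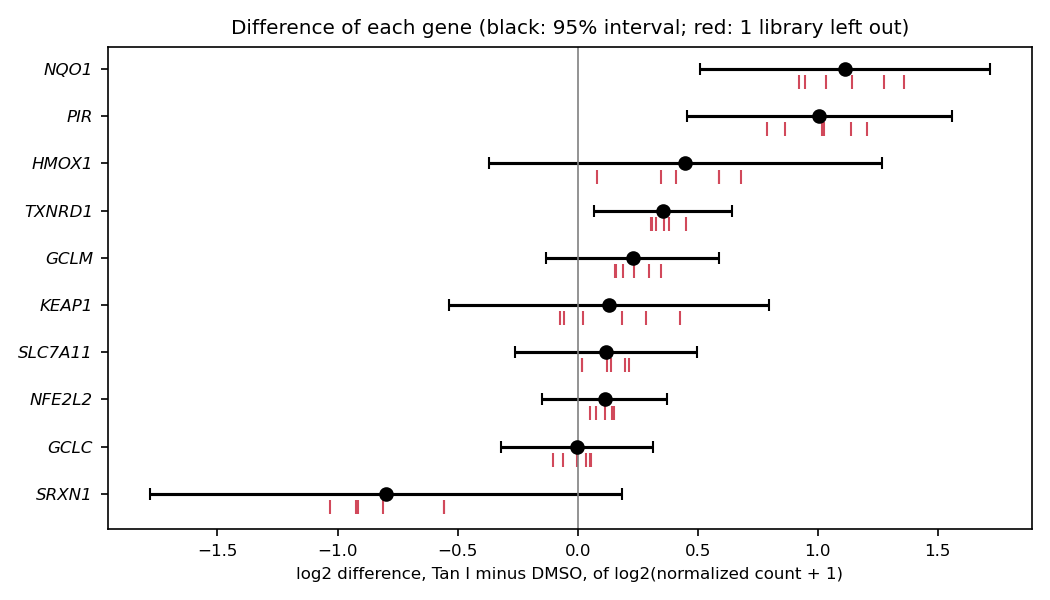
Log2 difference of each gene, Tan I minus DMSO, on log2(normalized count + 1) (x axis), as the limma estimate with its 95% interval (black), and the estimates with 1 library left out (red ticks). NQO1 and PIR stay near 1, HMOX1 drops to 0.08 without Tan I replicate 3, and KEAP1 has ticks on both sides of 0.

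TXNRD1 (ENSG00000198431, chromosome 12, 104215779 to 104350307, plus strand) encodes the cytosolic thioredoxin reductase, a selenoprotein that keeps thioredoxin reduced with NADPH. It was at 4271, 5192 and 4258 in DMSO (4574 ± 536) and at 6072, 5785 and 5628 in Tan I (5828 ± 225). The groups did not overlap, and here Tan I replicate 3 was the lowest of its group. The log2 difference was 0.36 (SE 0.12, interval 0.07 to 0.64). With 1 library left out the difference was between 0.31 and 0.45, and the call was lost without DMSO replicate 1, DMSO replicate 3, Tan I replicate 1 or Tan I replicate 2. Quantile normalization, and scaling the libraries to equal totals, ended it too.

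SRXN1 (ENSG00000271303, chromosome 20, 646615 to 653200, minus strand) encodes sulfiredoxin, which repairs overoxidized peroxiredoxins. It rested on 27, 18 and 16 reads in DMSO and on 12, 11 and 5 in Tan I, or 61 and 28 in all. As normalized counts these were 25.2, 17.3 and 12.5 against 11.7, 11.6 and 6.67. The lowest DMSO library and the highest Tan I library were less than 1 normalized count apart. The log2 difference was -0.80 (SE 0.42, interval -1.78 to 0.18), which includes 0, and the gene was called under 1 of the 16 alternatives that tested it, limma without the mean-variance trend. Its difference was -0.49 with a pseudocount of 10.

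The low number has a feature of the gene map beside it. In the GENCODE 44 annotation, 2292 of the 2528 bases of the SRXN1 transcript (90.7%) also belong to an exon of a readthrough gene on the same strand (ENSG00000270299, chromosome 20, 646626 to 675800), and 236 bases do not. How the authors' counting treated reads that fall on 2 genes is not given in the sources used here, and the readthrough gene was not analysed here. The part of this overlap in the level or in the difference of SRXN1 was not tested.

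**Figure D3:**
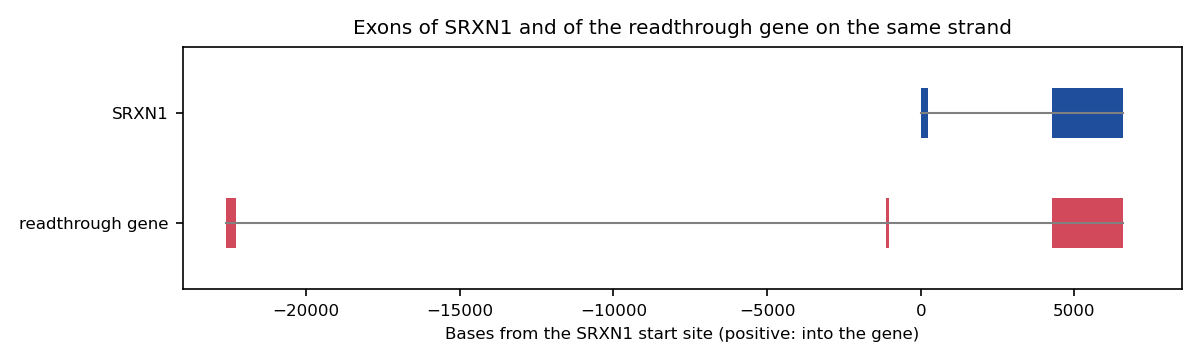
Annotated exons (boxes) of SRXN1 (blue) and of the readthrough gene on the same strand (red), by distance in bases from the SRXN1 start site (x axis). The last exon of the readthrough gene covers 2292 bases of the last SRXN1 exon, and its other exons lie upstream of SRXN1.

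Glutathione synthesis was represented by 3 genes, none of them called. GCLC (ENSG00000001084, chromosome 6, 53497341 to 53616970, minus strand) and GCLM (ENSG00000023909, chromosome 1, 93885199 to 93909456, minus strand) encode the catalytic and modifier subunits of glutamate-cysteine ligase, the rate-limiting enzyme. GCLC was at 821, 702 and 760 in DMSO and at 870, 696 and 719 in Tan I. Its means were 761 ± 59.7 and 761 ± 94.7, and the log2 interval of -0.32 to 0.31 does not reach the differences of NQO1 or PIR.

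GCLM was at 388, 484 and 370 in DMSO and at 480, 438 and 532 in Tan I. DMSO replicate 2 was above the lowest 2 Tan I libraries, so the groups overlapped. GCLM differed by 0.23 on the log2 scale (SE 0.15, interval -0.13 to 0.59), and by 0.35 without DMSO replicate 2. Within a library GCLM was at 0.472 to 0.689 of GCLC in DMSO and at 0.552 to 0.740 in Tan I, as counts that are not corrected for length.

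SLC7A11 (ENSG00000151012, chromosome 4, 138164097 to 138242349, minus strand) encodes the transport subunit of the cystine/glutamate exchanger, which brings in cystine for glutathione. It was at 443, 337 and 391 in DMSO and at 484, 410 and 376 in Tan I. In it DMSO replicate 2 and Tan I replicate 3 were the lowest of their groups, the reverse of NQO1 and PIR, and the groups overlapped. Its log2 difference was 0.12 (SE 0.16, interval -0.26 to 0.50). It became 0.02 without DMSO replicate 2 or Tan I replicate 1, 0.21 without DMSO replicate 1, 0.20 without Tan I replicate 3 and 0.06 with the libraries scaled to equal totals. Genes on the opposite strand share 8.97% of its transcript, 7.77% of that of NFE2L2 and 6.66% of that of GCLC.

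HMOX1 (ENSG00000100292, chromosome 22, 35380361 to 35394214, plus strand) encodes heme oxygenase 1, which opens heme to biliverdin, iron and carbon monoxide and is induced by many stresses. It was low: 53, 66 and 58 reads in DMSO and 53, 56 and 90 in Tan I. Its normalized counts were 49.4, 63.6 and 45.3 in DMSO and 51.8, 59.0 and 120 in Tan I. A single library, Tan I replicate 3, stood above all others. The log2 difference was 0.45 (SE 0.35, interval -0.37 to 1.27) and became 0.08 without that library.

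Levels were compared between genes per kilobase of canonical transcript. In DMSO, TXNRD1 was highest at 1185 ± 139 normalized counts per kilobase (SD, n = 3) and did not overlap the next gene. KEAP1 (733 ± 279), NFE2L2 (572 ± 29.4), NQO1 (494 ± 158) and PIR (489 ± 92.0) followed, and each overlapped its neighbour in that order. GCLC (201 ± 15.8) and GCLM (84.7 ± 12.5) were each separate from their neighbours, SLC7A11 (40.5 ± 5.48) and HMOX1 (34.0 ± 6.16) overlapped, and SRXN1 (7.25 ± 2.53) was the lowest. In Tan I, NQO1 (1057 ± 266) and PIR (999 ± 294) came directly after TXNRD1 (1510 ± 58.3) and before KEAP1 (785 ± 208) and NFE2L2 (619 ± 47.2), with the ranges of PIR and KEAP1 still overlapping.

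**Figure D4:**
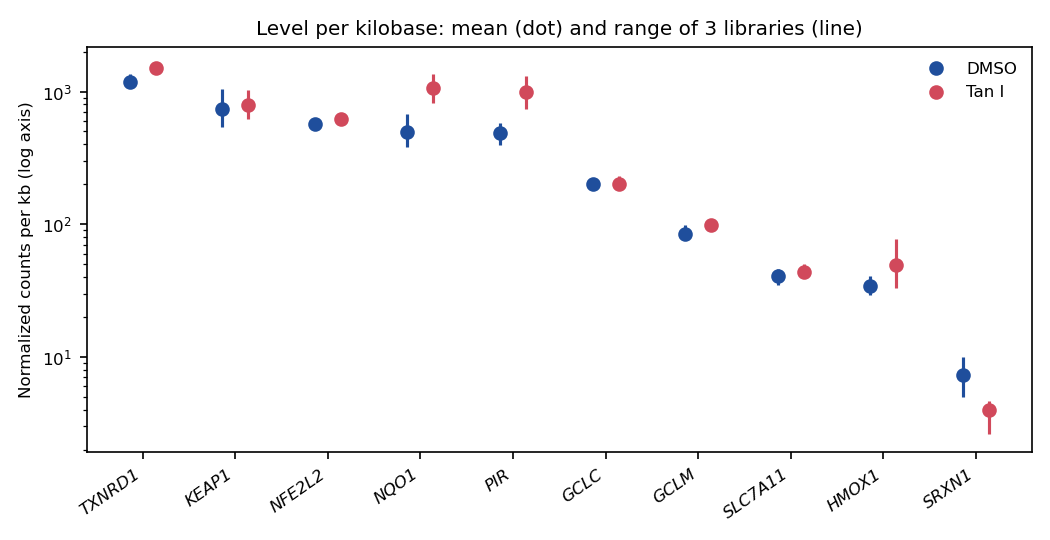
Level of each gene in normalized counts per kilobase of canonical transcript (y axis, log scale) in DMSO (blue) and Tan I (red), with the mean of 3 libraries as a dot and their range as a line. NQO1 and PIR moved from about the level of NFE2L2 in DMSO to above it in Tan I, and SRXN1 is lowest in both groups.

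The rest of the pathway was described with 7 lists holding 90 further genes, of which 83 were analysed and 82 tested. Of these 82, limma called 4 higher (4.88%) and 0 lower, beside 1.32% and 1.10% of all genes. The median log2 difference was 0.11, and 62.2% had a higher mean in Tan I, against 49.7% of all genes. All libraries of Tan I lay above all of DMSO in 5 genes and below in 1, beside 3.92% and 3.97% of all genes tested. In 78.0% of the 82 genes Tan I replicate 3 was the highest Tan I library (43.3% of all genes), and in 73.2% DMSO replicate 2 was the highest DMSO library (45.9%). The count moved with single libraries, from 0 called without Tan I replicate 2 or Tan I replicate 3 to 15 without Tan I replicate 1. It was 1 without DMSO replicate 1, 1 without DMSO replicate 3 and 8 without DMSO replicate 2. The lists were written with earlier results of these data known, so their counts are no independent evidence of a direction.

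NADPH supply had 2 of its 9 genes described here called higher (22.2%, beside 1.32% of all genes). NADPH is the electron donor of NQO1, thioredoxin reductase and glutathione reductase. PGD, an NADPH-forming enzyme of the pentose phosphate pathway, averaged 8314 ± 790 normalized counts under DMSO and 11148 ± 1833 under Tan I, a log2 difference of 0.41 (SE 0.16), and its libraries did not overlap between the groups. ME1, the cytosolic malic enzyme, was at 604 ± 115 and 865 ± 137 (0.52, SE 0.18), with overlapping groups. TALDO1 was the highest of the other 7 genes (0.35, SE 0.25), and NADK, which makes NADP from NAD, was the lowest (-0.18, SE 0.11). The list's median was 0.17. Without DMSO replicate 1, DMSO replicate 3, Tan I replicate 2 or Tan I replicate 3 neither PGD nor ME1 was called, and limma without the mean-variance trend did not call PGD.

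Among 13 partners, repressors and degradation factors of NRF2, 1 was called higher (7.69%, beside 1.32% of all genes). MAFF, a small MAF protein that can pair with NRF2, was at 354 ± 30.1 in DMSO and 478 ± 47.7 in Tan I (0.43, SE 0.14), and this call was lost without Tan I replicate 2 or Tan I replicate 3. The log2 differences of the other 12 lay between -0.52 for BACH2, a repressor that competes at MAF sites and was at only 27.5 ± 7.40 and 19.4 ± 8.27, and 0.23 for MAFG. The median was -0.02, and 9 of the 13 had a lower mean in Tan I.

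Of 17 tested genes of glutathione synthesis, recycling and use, 1 was called higher (5.88%, beside 1.32% of all genes). MGST1, a membrane glutathione transferase, was at 1529 ± 233 and 2210 ± 420 (0.52, SE 0.18), its groups overlapped, and its call was lost without DMSO replicate 1, DMSO replicate 3, Tan I replicate 2 or Tan I replicate 3. GSR, glutathione reductase, was the highest of the rest (0.37, SE 0.18) and CHAC1, which degrades glutathione, the lowest (-0.19, SE 0.35). The median was 0.12.

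Under the rule used throughout, with all libraries, no gene was called in the remaining lists. The 17 genes of thioredoxin, peroxiredoxin and glutaredoxin had a median of 0.18, from -0.20 for the sestrin SESN3 to 0.42 for the peroxiredoxin PRDX1. PRDX1 was at 3864 ± 946 and 5201 ± 1532, so its groups were wide. The 16 tested genes of quinone, carbonyl and conjugate detoxification had a median of 0.07, from -0.17 for ALDH3A2 to 0.33 for AKR1C3. AKR1C3 has close paralogs, and per the study's methods reads that mapped to several places were removed, so its counts may be too low. The 7 genes of heme breakdown and iron storage ran from -0.09 for FECH, which makes heme by inserting iron, to 0.54 for FTL. FTL, the ferritin light chain, was at 41683 ± 7166 and 61737 ± 18876, and its groups overlapped. It was called higher with quantile normalization, equal totals, DESeq2 or a replicate block, and without Tan I replicate 1. Of 3 genes that remove superoxide and hydrogen peroxide, SOD2 was at -0.05 and SOD1 at 0.24.

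**Figure D5:**
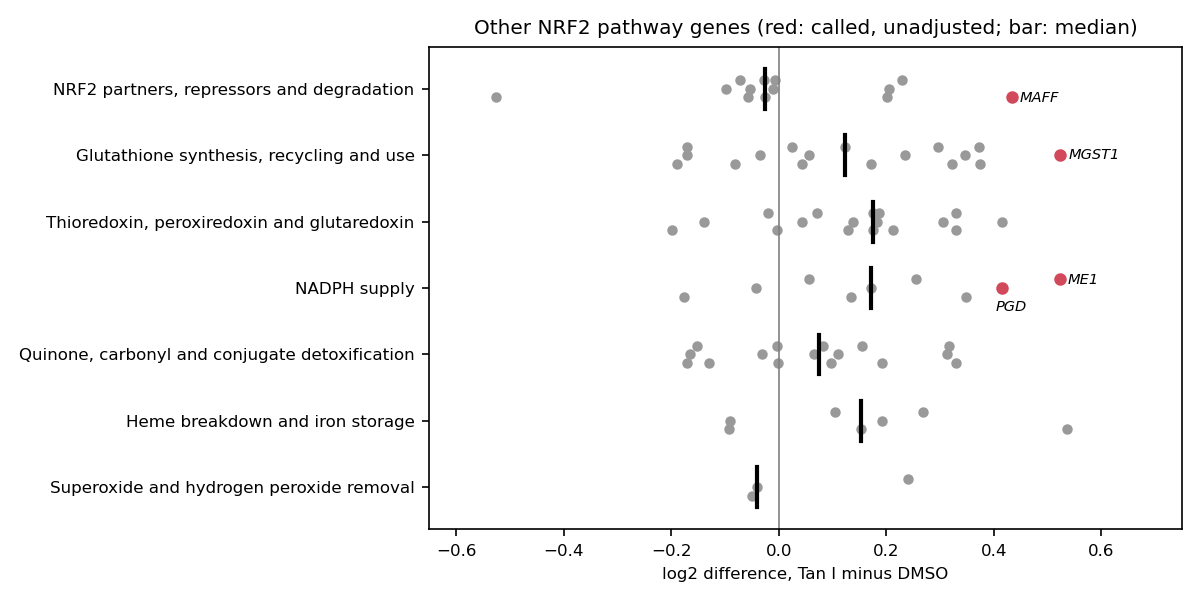
Log2 difference, Tan I minus DMSO (x axis), of each tested gene in the 7 lists of other NRF2 pathway genes (y axis), with genes called at an unadjusted p of at most 0.05 in red and the median of each list as a black bar. The 4 called genes are MAFF, MGST1, PGD and ME1, and no gene was called lower.

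NQO1 is also a target of the aryl hydrocarbon receptor (AHR). In the same libraries CYP1A1, the leading gene of the 7-gene AHR list, was at 1372 ± 373 in DMSO and 4303 ± 1041 in Tan I (log2 difference 1.66), and CYP1B1 and TIPARP of that list were also called higher (0.85 and 0.50), beside 1.32% of all genes. TIPARP was not called with the libraries scaled to equal totals. The other 4 genes were not called, from 0.03 for ARNT to 0.35 for CYP1A2, which averaged 12.8 ± 3.01 and 16.5 ± 3.22, with AHR itself at 0.17. The part of AHR in the difference of NQO1 was not tested.

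Profiles over the 6 libraries were compared by the root mean square difference of log2 values centred on each gene's mean, among 11089 genes with a mean of at least 100. PIR was the gene nearest to NQO1 (0.14), followed by KRT81 (0.14) and NCF1 (0.15). The nearest to PIR were NCF1 (0.066), KRT81 (0.11) and NQO1 (0.14). These profiles contain the difference between the groups, and the members were chosen with that difference known. That NQO1 and PIR lay near each other is therefore a description and no independent evidence of shared behaviour. KRT81, a hair keratin, and NCF1, a subunit of the phagocyte NADPH oxidase, have close or near-identical copies in the genome, and their counts are uncertain because reads that mapped to several places were removed. For SRXN1 the nearest were MBLAC2 (0.26), NHSL2 (0.27) and ZBED3 (0.27), and the nearest member, GCLC, came at place 3245.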

How the data were processed

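RNA-seq of 6 NB4 libraries was used, 3 in DMSO and 3 in 10 μM Tan I. Per the study's methods and the submitters' processing notes, reads were aligned with STAR to GRCh38, those that mapped to several places were dropped, and the rest were counted with featureCounts and normalized with DESeq2. The versions, the annotation release and the strand setting are not given in the sources used here. The deposited signal values are counts that the authors divided by 1 size factor per library. They were whole multiples of 1 step per library (tolerance 0.01), from which reads were recovered. The authors' own means, fold changes, standard errors, test statistics and p-values in the same table were not used.

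Genes with a mean of at least 10 were tested with limma 3.58.1 (R 4.3.3) on log2(normalized count + 1), with the mean-variance trend. The code was also run on simulated counts. These were drawn independently for each gene, without the shifts shared by many genes between libraries seen here. They are therefore no check of the calls under such shifts. edgeR 4.0.16 and DESeq2 1.42.0 on recovered reads were alternatives, with pseudocounts of 0.1 and 10, no filter, a mean of at least 50, other scalings, no trend, a replicate block and each library left out. Leaving out DMSO replicate 2 and Tan I replicate 3 together was chosen after seeing the data. P-values rest only on the spread between these libraries, and limma draws each gene's variance toward that of genes at a similar level. Positions and exons came from GENCODE 44, which held 99.6% of the gene identifiers.

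The 10 genes and all lists were chosen with earlier results of these data known, and 1 gene of the lists is not reported here. Named were all 10 genes, each list gene past the rule, the lowest and highest of the rest, the 3 nearest profiles of NQO1, PIR and SRXN1, and CYP1A1. Further genes whose values are given are markers of the cell line.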

Additional observations from a re-analysis of the deposited data

How the results depend on the processing

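The number of genes called without adjustment, 408, ranged from 160 without Tan I replicate 2 to 1496 without Tan I replicate 1. It was 180 without DMSO replicate 1, 201 without DMSO replicate 3 and 271 without Tan I replicate 3. With adjustment, limma called 0, DESeq2 16 and limma without DMSO replicate 2 and Tan I replicate 3 together 2. For the other NRF2 pathway genes, 4 calls became 0 to 15 with 1 library left out and 7 with those 2 libraries left out. The cause was not tested. Rescaling each library to the same total shifted the median log2 difference of all genes to -0.06 and the split from 223 higher and 185 lower (54.7% higher) to 188 and 250 (42.9%).

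The log2 differences of the 10 genes moved by less than 1 SD (the root of the mean within-group variance of the log2 values) in all 169 values recomputed. None of the differences of called genes changed sign. With 3 libraries per group, leaving out 1 cannot move a difference by 1 SD. The choice of filter, trend or replicate block leaves it unchanged. The limit is therefore no check of stability for these settings. HMOX1 stayed within it while going from 0.45 to 0.08 without Tan I replicate 3. The members called numbered 2 to 4 over the alternatives, and NQO1 and PIR were called in all 17. SRXN1 was not tested with a mean of at least 50. Equal replicate numbers did not pair the libraries (correlations of deviations 0.75, -0.09 and -0.45). A replicate block gave 348 called genes and 3 called members, and changed no member's call. SRXN1 rested on 5 to 27 reads per library, and the HMOX1 difference on 1 library.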

Other observations

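The SD of log2 values within DMSO differed between the members. KEAP1 (SD 0.52), SRXN1 (0.48) and NQO1 (0.44) varied most, at the percentiles 85.1, 83.2 and 80 of all genes tested. These percentiles are not adjusted for level, and SRXN1 rested on only 27, 18 and 16 reads in DMSO. For KEAP1 and NQO1, DMSO replicate 2 lay well above the other DMSO libraries. NFE2L2 (0.07) and GCLC (0.11), at the percentiles 10.3 and 19.5, varied little. DMSO replicate 2 was the highest DMSO library for 6 of the 10 genes, and Tan I replicate 3 the highest Tan I library for 5.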
